A study of Mus musculus with 27 samples.

Results

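The genes described here belong to water, glycerol and carbon dioxide transport and were followed through every RNA-Seq library of the series. They are the aquaporins *Aqp1*, *Aqp3*, *Aqp8* and *Aqp9*, and the carbonic anhydrases *Car1* and *Car2*. They were taken by their symbols, and all 6 were found among the 20602 gene symbols listed in the series. The cells were MEL cells, an established mouse erythroleukaemia line that resembles an erythroid progenitor and can be induced to differentiate. In 4 comparisons a repressor or cofactor was knocked down: *Cbfa2t3*, which encodes ETO2 (Eto2 KD-sh2 and Eto2 KD-sh3, 2 libraries each, against 2 Eto2 WT), *Irf2bp2* (2 Irf2bp2 KD-sh1 against 2 Irf2bp2 WT), *Kdm1a*, which encodes LSD1 (2 Lsd1 KD against 1 Lsd1 WT), and *Gfi1b* (2 Gfi1b KD against 2 Gfi1b WT). The fifth compared 2 libraries of MEL induced cells with 2 of MEL non-induced cells, for which no inducing agent is given in the sources used here. By the methods of the study, the first 3 KDs used lentiviral shRNAs, *Gfi1b* was targeted with a pair of siRNAs, and the libraries labelled WT came from cells given a non-targeting shRNA or siRNA. Which siRNA belongs to which Gfi1b library is not given, and the labels do not say what separates replicates, though the methods call the sequenced replicates independent and biological. A list of sites bound by ETO2 or IRF2BP2 in MEL cells was used as well.

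Aquaporins are membrane channels for water, and the aquaglyceroporins among them, such as AQP3 and AQP9, also pass glycerol and other small solutes. Carbonic anhydrases convert carbon dioxide and water to bicarbonate and a proton and back, the reaction on which red cells rely to carry carbon dioxide, with band 3 (*Slc4a1*) exchanging the bicarbonate for chloride. AQP1 is the water channel of the red cell membrane, AQP9 is the glycerol channel of mouse red cells, and CA1 and CA2 are the abundant cytosolic carbonic anhydrases of red cells.

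Some checks of the libraries touch all results below. Counted reads ran from 9929311 to 57684583 per library, with the *Gfi1b* and MEL induction tables shallower than the shRNA tables. CPM, counts scaled by TMM to the library size, is the scale used for a gene across libraries, and a count of 3 was worth between 0.0522 and 0.302 CPM. *Cbfa2t3* fell by 1.21 on the log2 scale in its KD (edgeR's quasi-likelihood test, Benjamini-Hochberg adjusted p = 0.00954). *Irf2bp2* fell by 0.33 in its KD (same test, adjusted p = 0.00266), less than the limit of 0.5 used for calls below. *Kdm1a* went from 152 CPM to 16.9 and 16.3 CPM. The library labelled Gfi1b KD replicate 1 held 215 CPM of *Gfi1b*, above the 123 and 145 CPM of its controls, whereas replicate 2 held 76.3 CPM. The targeted gene thus goes against 1 label, and both are called the libraries labelled Gfi1b KD. Of 8 erythroid markers, 6 were above 3 counts in every library. The globin gene *Hbb-b1* was at 3 counts or fewer or not listed, and *Hba-a1* did not exceed 66 counts. These counts taken alone do not give the level of globin RNA. The 22 and 66 *Hba-a1* counts in *Irf2bp2* KD were 163 and 411 RPKM, the authors' value per length. The study reports activation of the α- and β-globin genes in *Cbfa2t3* and *Irf2bp2* KD. No myeloid marker sum exceeded 0.892 CPM. The summed erythroid markers ran from 1428 to 1443 CPM in the *Cbfa2t3* controls and from 1843 to 2100 CPM in the KD, from 1161 to 1226 and from 2702 to 2892 CPM for *Irf2bp2*, and from 1847 to 1922 and from 3068 to 3488 CPM for MEL induction. They were lower in *Kdm1a* KD, 1031 and 1033 CPM against 1521 CPM. Summed megakaryocyte markers went from between 403 and 415 CPM to between 474 and 589 CPM in *Cbfa2t3* KD, from between 367 and 421 CPM to between 795 and 840 CPM in *Irf2bp2* KD and from between 382 and 524 CPM to between 1154 and 1284 CPM on MEL induction. Summed lymphoid markers were lower in *Cbfa2t3* KD (17.1 to 25.4 against 30.4 to 34.5 CPM) and *Irf2bp2* KD (9.32 to 9.50 against 25.4 to 27.6 CPM). They were also lower on MEL induction (2.12 to 7.52 against 15.9 to 21.1 CPM) and in *Kdm1a* KD (22.0 and 23.6 against 34.0 CPM). In the shRNA tables these sums were nearly all *Ptprcap*, which averaged 26.3 CPM in the *Irf2bp2* controls and 9.13 CPM in the KD. The mean of *Cd79a* was higher in *Irf2bp2* KD (0.265 against 0.190 CPM) and *Kdm1a* KD (0.585 against 0.165 CPM). In *Cbfa2t3* KD it was 0.322 against 0.349 CPM. The part of these shifts in the results below was not tested, and more RNA per cell and more cells of one state cannot be told apart in bulk samples.

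Sequences under 4 shared sites and 1 ETO2-only site near the genes that could be tested are given first, because they show where the factors were found. In the deposited list of 13229 sites, on mm9, a site is classed as ETO2-only, IRF2BP2-only or shared, and carries a fold of ChIP over IgG reads. *Car1* lies on chromosome 3 at 14766217 to 14778459 on the minus strand and *Car2* at 14886426 to 14900769 on the plus strand, so that they point away from each other with *Car3* between them. A shared site lay 7339 bp upstream of the *Car2* start, between genes, with a fold of 43.0, at percentile 99.0 of the listed sites. A second shared site, with a fold of 19.5, lay 30085 bp upstream of *Car1* and 77882 bp upstream of *Car2*. An IRF2BP2-only site of 6.29-fold stood 16466 bp upstream of *Car2*, in an intron of *Car3*. *Aqp8* (chromosome 7, 130605808 to 130611517, plus strand) had a shared site of 15.7-fold centred 37 bp before its start and an ETO2-only site of 11-fold 2829 bp upstream. *Aqp9* (chromosome 9, 70958466 to 71016489, minus strand) had 4 sites, all in its introns, and the highest was a shared site of 13.3-fold 2459 bp inside the gene. The order by fold is not that by the deposited adjusted p, which comes from a negative binomial test by the methods. That p was 1.12e-17 for this *Aqp9* site and 3.75e-10 for the 43.0-fold *Car2* site. The following are read from the mm9 genome on the plus strand, up to 100 bases to each side of the site centre and free of annotated exons, with GATA letters (AGATAA or its complement TTATCT) and any longer composite E-box and GATA motif in capitals.
*Car2* upstream, shared, chr3:14878987-14879187: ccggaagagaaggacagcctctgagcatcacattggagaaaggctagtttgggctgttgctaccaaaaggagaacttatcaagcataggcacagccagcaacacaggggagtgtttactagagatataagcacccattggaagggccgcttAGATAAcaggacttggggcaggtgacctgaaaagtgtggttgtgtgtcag
*Car1* upstream, shared, chr3:14808444-14808644: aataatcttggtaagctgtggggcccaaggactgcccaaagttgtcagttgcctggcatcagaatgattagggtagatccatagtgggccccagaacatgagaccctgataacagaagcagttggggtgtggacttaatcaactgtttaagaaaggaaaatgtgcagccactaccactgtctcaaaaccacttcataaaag
*Aqp8* start, shared, chr7:130605671-130605807: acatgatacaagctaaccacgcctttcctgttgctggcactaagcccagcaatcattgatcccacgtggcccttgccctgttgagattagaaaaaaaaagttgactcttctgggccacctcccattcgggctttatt
*Aqp8* upstream, ETO2-only, chr7:130602879-130603079: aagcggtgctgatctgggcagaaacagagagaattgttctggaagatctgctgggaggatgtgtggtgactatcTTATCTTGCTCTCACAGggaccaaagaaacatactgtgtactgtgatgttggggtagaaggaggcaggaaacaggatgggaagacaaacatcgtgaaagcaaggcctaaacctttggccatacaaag
*Aqp9* intron, shared, chr9:71013930-71014130: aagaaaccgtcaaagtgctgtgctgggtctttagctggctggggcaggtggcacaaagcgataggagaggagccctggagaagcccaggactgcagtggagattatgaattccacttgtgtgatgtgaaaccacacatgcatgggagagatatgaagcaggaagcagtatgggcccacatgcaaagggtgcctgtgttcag

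The *Car2* upstream window held 1 AGATAA and the *Aqp8* upstream window 1 AGATAA within 1 composite motif, while the other 3 windows held neither. Outside the composite motif only AGATAA was sought, not the wider WGATAR (W is A or T, R is A or G). TGATAA, which matches WGATAR, stands unmarked in the *Car1* upstream window, and its complement TTATCA in the *Car2* upstream window. Over all listed sites, 58.4% of shared, 56.1% of ETO2-only and 22.6% of IRF2BP2-only windows of 201 bases held AGATAA on either strand. The composite motif was found in 32.7%, 33.9% and 6.3% of them. These matches describe the letters only, and the printed *Aqp8* start is shorter than the windows counted because it ends where the first exon begins.

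*Aqp3* (chromosome 4, 41039755 to 41045216, minus strand) had 5 sites within 100 kb of its start, the nearest a shared site of 8.17-fold 10590 bp downstream of the start and beyond the gene's end. *Aqp1* (chromosome 6, 55286426 to 55298549, plus strand) had none, its nearest listed site being an IRF2BP2-only site 298530 bp upstream. Thus 5 of the 6 genes had a site within 100 kb, and the same 5 had a shared one. Of 22367 protein-coding genes, 60.9% had a listed site and 27.5% a shared site at this distance. Within 20 kb, 4 of the 6 genes had a site, against 31.6% of all genes, with *Car1* and *Aqp1* not among them. At the wider distance, the sites of 19.5 and 6.29-fold count for both *Car1* and *Car2*. The map of sites by distance shows these positions together.

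**Figure D1:**
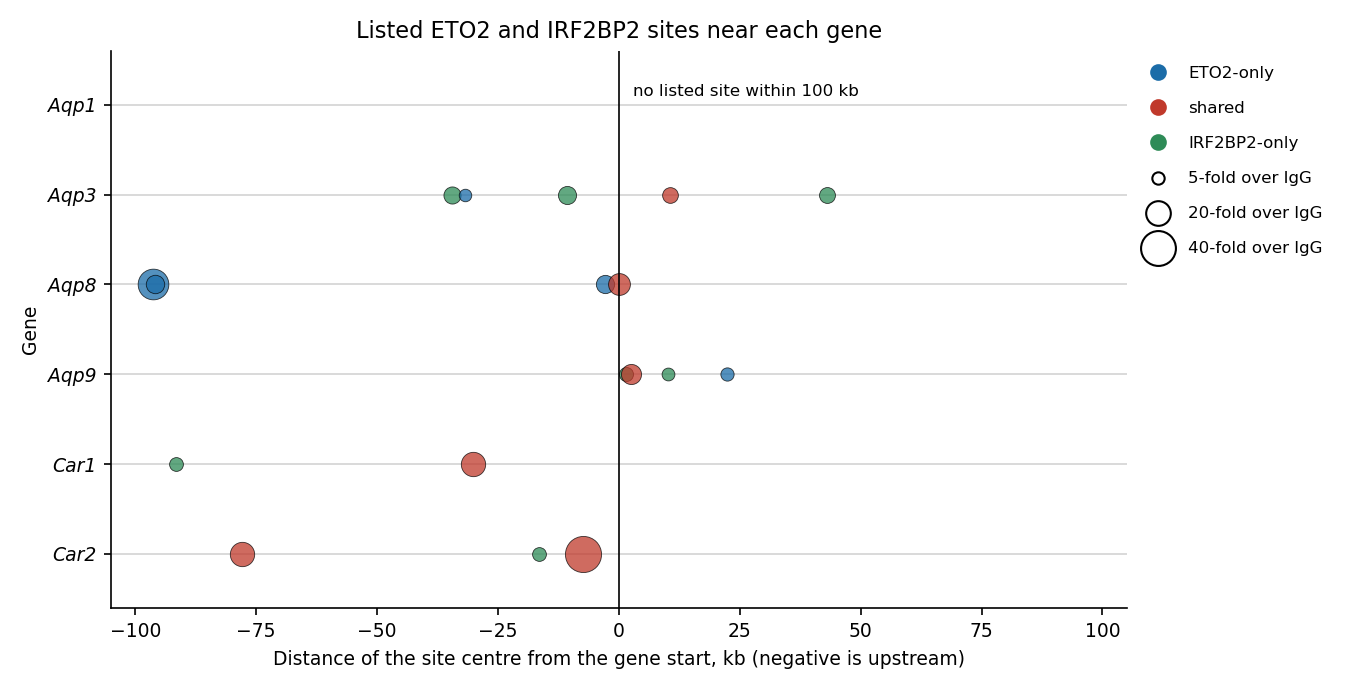
Listed ETO2-only (blue), shared (red) and IRF2BP2-only (green) sites by the distance of their centre from each gene's start in kb, with upstream to the left; the area of a circle grows with the authors' fold over IgG. The widest circles are the shared site 7339 bp upstream of *Car2* (43.0-fold) and an ETO2-only site 96300 bp upstream of *Aqp8* (31.0-fold), which lies in an intron of *Arhgap17*, and *Aqp1* has no site.

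The 6 genes spanned the range of expression in MEL cells. By the RPKM values of the authors, which are per length and allow genes to be compared, *Car1* ran from 252 to 1450 RPKM over the 21 libraries and ranked between 33 and 287 among the genes of its library. *Car2* ran from 147 to 636 RPKM, with ranks from 106 to 471. *Aqp9* was the only aquaporin at a substantial level, from 15.5 to 70.8 RPKM. *Aqp8* did not exceed 1.64 RPKM and *Aqp1* did not exceed 2.32 RPKM. The erythroid water channel was therefore at or below 0.867 RPKM in every control library. *Aqp3* was too low to be described further: it was not listed in 7 libraries, had at most 6 counts in the other 14, exceeded 3 counts in 3 of these, and was removed by the filter on low counts in every table that listed it. *Aqp1* was also removed by that filter in the *Irf2bp2*, *Kdm1a* and *Gfi1b* tables, and *Aqp8* in the *Gfi1b* and MEL induction tables. *Aqp9*, *Car1* and *Car2* were above the filter in all 5.

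**Figure D2:**
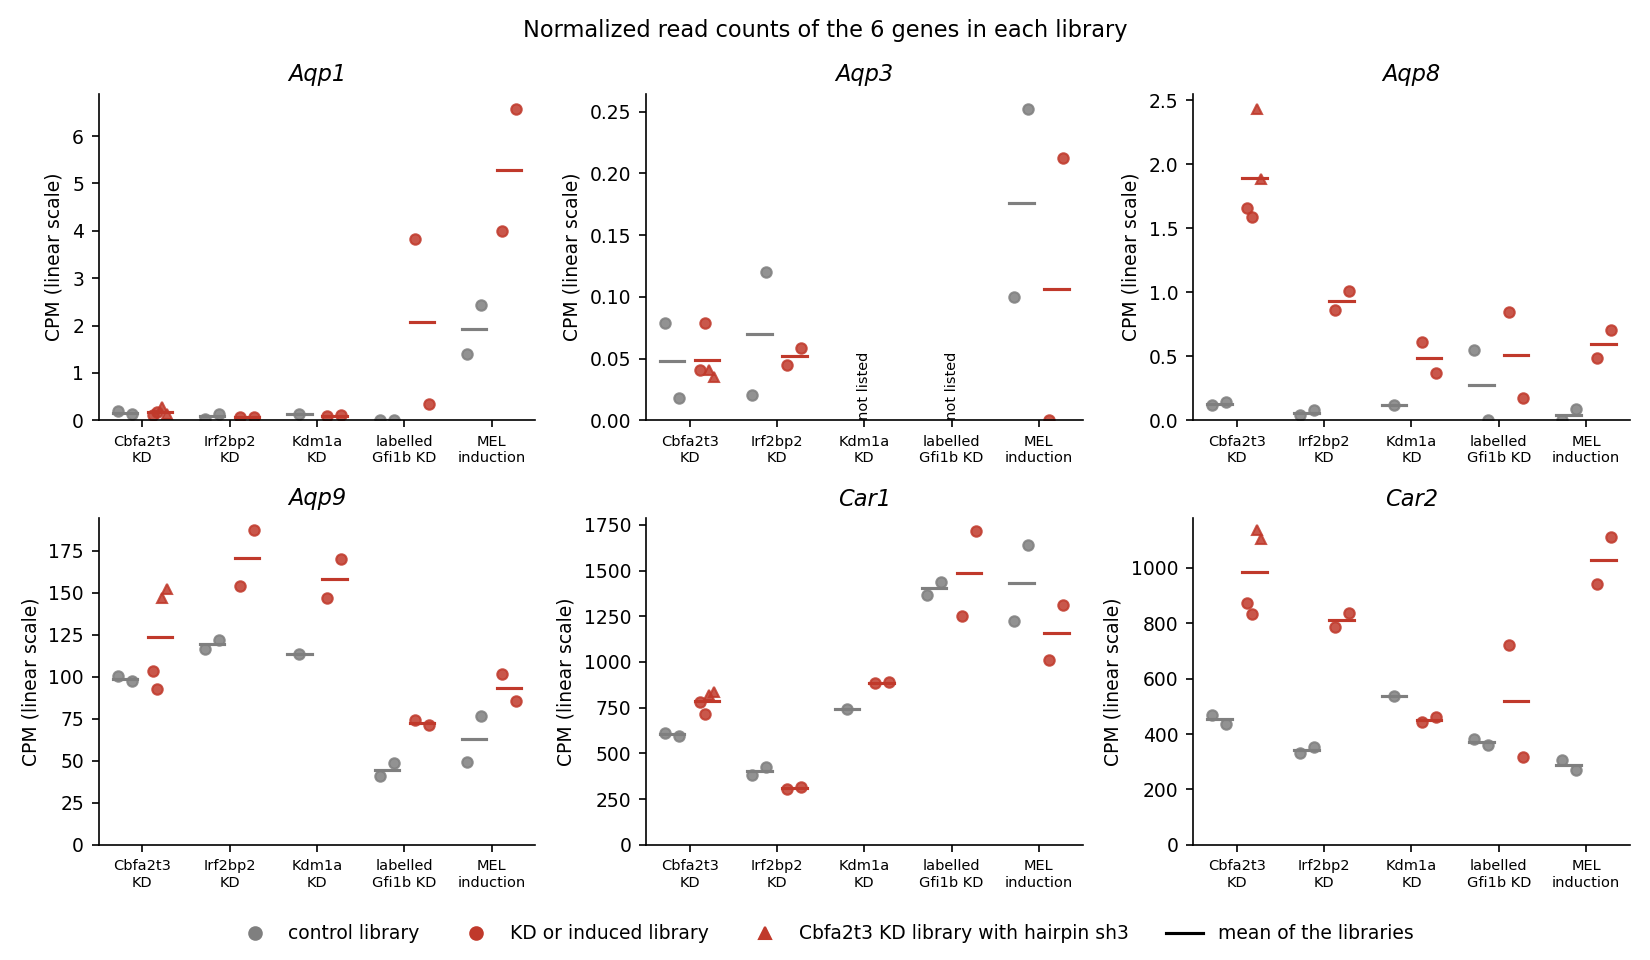
CPM of each gene (linear axis from 0, 1 panel per gene) in every library of the 5 tables, with controls in grey, KD or induced libraries in red, hairpin sh3 as triangles and bars at the mean. *Aqp8* lies at 1.59 to 2.43 CPM in the *Cbfa2t3* KD libraries above 0.118 and 0.142 CPM in their controls, and *Aqp1* exceeds 1 CPM only in the MEL induction libraries and in the library labelled Gfi1b KD replicate 1.

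*Aqp8*, a water channel that also passes ammonia and hydrogen peroxide, had the highest log2 FC of the 6 genes in both *Cbfa2t3* and *Irf2bp2* KD. After *Cbfa2t3* KD it had 82 and 81 counts with hairpin sh2 and 120 and 108 counts with sh3, against 6 and 8 counts in the controls. On the CPM scale these were 1.66, 1.59, 2.43 and 1.88 against 0.118 and 0.142, and all 4 KD libraries lay above both controls. *Aqp8* rose by 3.84 ± 0.32 on the log2 scale (SE, edgeR's quasi-likelihood test, adjusted p = 0.000243), and it and *Car2* were the 2 of 5 tested genes called, where 5.74% of all genes tested were called. With 6 and 8 control counts, *Aqp8* passed the filter on low counts only through the KD libraries. It was not tested when 10 counts were required in every library. Its call and the count of 2 are therefore given as a description. Calls needed an adjusted p no higher than 0.05 and a log2 FC of at least 0.5 in either direction.

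After *Irf2bp2* KD, *Aqp8* had 38 and 52 counts against 2 and 4 in the controls, so every KD library again lay above every control. The pooled ratio was 15.6, with an exact Clopper-Pearson 95% interval from 6.91 to 43.7 that covers counting error only. It rose by 3.89 ± 0.50 on the log2 scale (edgeR's quasi-likelihood test, adjusted p = 7.87e-06). It was 1 of 3 called among 4 tested genes, with *Car2* and *Aqp9*, against 22.5% of all genes. Here too it passed the filter only through the KD libraries, so its call and the count of 3 are given as a description. The difference between the 2 KD effects on *Aqp8*, tested in a joint fit, was 0.06 with a 95% interval from -0.84 to 0.96 (adjusted p = 0.942). Leaving out any of 4 of the 10 libraries changed its sign, and the interval admits a difference of almost 1 log2 unit in either direction.

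In *Kdm1a* KD, with 1 control library and hence no test, *Aqp8* had 33 and 17 counts against 6. Both KD libraries lay above the control, by 1.99 and 1.34 on the log2 CPM scale with a prior count of 2. It was the only one of the 4 genes kept whose KD libraries both passed 0.5 in the same direction, against 22.9% of all genes. It passed the filter only through the KD libraries, so this count is given as a description. On MEL induction *Aqp8* had 7 and 10 counts against 0 and 1, a pooled ratio of 18.9 with a counting interval from 2.96 to 791. It did not pass the filter there, and without the filter its adjusted p was 0.169. In the *Gfi1b* table its 8 and 0 control counts overlapped the 16 and 2 counts of the libraries labelled Gfi1b KD.

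*Car2*, the carbonic anhydrase of high activity, rose in each comparison but 2. In the *Cbfa2t3* table it was at 470 and 437 CPM in the controls, 874 and 834 CPM with sh2, and 1137 and 1103 CPM with sh3. The 3 groups did not overlap, and sh3 was the higher of the hairpins. *Car2* rose by 1.13 ± 0.13 on the log2 scale (adjusted p = 0.00115), a fold of 2.19. In the *Irf2bp2* table it was at 332 and 352 CPM in the controls and 787 and 838 CPM in the KD. This rise was 1.23 ± 0.09 (adjusted p = 1.02e-08). The difference between these KD effects was 0.11, with an interval from -0.23 to 0.45 (adjusted p = 0.687).

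The highest log2 FC of *Car2* was that of MEL induction, which took it from 305 and 269 CPM to 942 and 1112 CPM, with no overlap. The log2 FC was 1.85 ± 0.24 (adjusted p = 0.000190), a fold of 3.60. *Car2* was the 1 called gene of 4 tested in that comparison, where 27.2% of all genes were called. In *Kdm1a* KD, by contrast, 443 and 461 CPM in the KD libraries lay below 537 CPM in the control. These log2 differences, -0.27 and -0.20, are within the limit of 0.5. In the *Gfi1b* table the controls held 383 and 360.5 CPM and the libraries labelled Gfi1b KD 720 and 316 CPM, one above and one below both controls.

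*Car1*, the less active cytosolic isoform, did not pass the fold limit in any tested comparison, yet its KD effects differed. In the *Cbfa2t3* table it was at 610 and 598 CPM in the controls, 781 and 717 CPM with sh2 and 819 and 834 CPM with sh3. The KD libraries all lay above the controls, with a log2 FC of 0.39 ± 0.07 (adjusted p = 0.00834) that stayed under 0.5. In *Irf2bp2* KD, the 307 and 318 CPM of the KD libraries lay below 380.0 and 425 CPM in the controls, a log2 FC of -0.38 ± 0.09 (adjusted p = 0.00223), again under the limit. The 2 effects differed by -0.77 ± 0.11 (*Irf2bp2* minus *Cbfa2t3*, edgeR's quasi-likelihood test on the joint fit, adjusted p = 0.000604). *Car1* was the only 1 of the 4 genes tested for this difference that was called, against 14.4% of all genes. The difference stayed between -0.84 and -0.68 when each library was left out. The targets were depleted unequally, with a log2 FC of -1.21 for *Cbfa2t3* and -0.33 for *Irf2bp2*. The part of this in the *Car1* difference was not tested.

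In *Kdm1a* KD *Car1* was at 884 and 890.2 CPM against 740.0 CPM, differences of 0.27 and 0.28. On MEL induction it was at 1010 and 1309 CPM against 1223 and 1641 CPM, and the groups overlapped (log2 FC -0.30 ± 0.25, adjusted p = 0.408). With a library left out this log2 FC ran from -0.51 to -0.07. The libraries labelled Gfi1b KD, at 1252 and 1717 CPM, lay on either side of their controls at 1368 and 1436 CPM.

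Set against each other per length, *Car1* and *Car2* shifted in their ratio. The ratio of *Car1* to *Car2* RPKM was 2.03 and 2.05 in the Eto2 WT libraries, 1.4 and 1.29 with sh2 and 1.08 and 1.19 with sh3. It was 1.80 in both Irf2bp2 WT libraries and 0.584 and 0.568 in the KD, the only libraries in which *Car2* exceeded *Car1*. It moved from 6.25 and 9.56 to 1.66 and 1.83 on MEL induction, and from 2.16 to 3.11 and 2.89 in *Kdm1a* KD. For *Gfi1b* the ratio was 5.34 and 5.96 in the WT libraries and 2.60 and 8.14 in the libraries labelled KD, on either side of them. The controls differed between tables too, and the *Gfi1b* and MEL induction tables differ from the shRNA tables in depth and in the treatment of their controls, which cannot be told apart here.

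**Figure D3:**
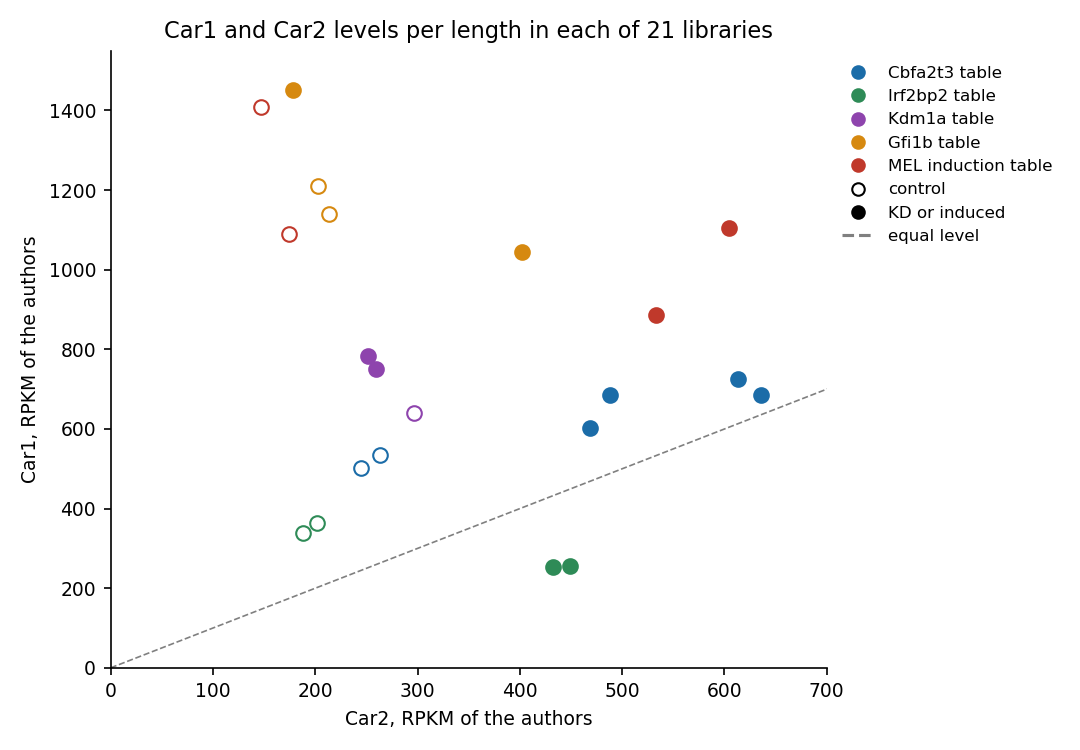
RPKM of *Car1* (vertical) against *Car2* (horizontal) as the authors give them, 1 point per library, with open circles for controls, filled circles for KD or induced libraries and a dashed line where both are equal. The 2 Irf2bp2 KD-sh1 libraries lie below the line, with ratios of 0.584 and 0.568, and the Eto2 KD and MEL induced libraries lie to the right of their controls.

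*Aqp9*, the glycerol channel, separated the *Cbfa2t3* hairpins. It was at 100.2 and 97.4 CPM in the controls and at 104 and 92.9 CPM with sh2, which overlap, but at 147 and 152 CPM with sh3. Over both hairpins the log2 FC was 0.33 ± 0.19 (adjusted p = 0.307). The sh3 libraries alone gave 0.60 (adjusted p = 2.91e-06) and the sh2 libraries alone -0.0014 (adjusted p = 0.991). Tested directly, sh3 exceeded sh2 by 0.60 ± 0.06 (adjusted p = 0.000147), and *Aqp9* was the 1 called of 5 genes tested, against 3.71% of all genes. *Car2* was also higher with sh3, by 0.39 ± 0.06 (adjusted p = 0.00243), under the fold limit. *Cbfa2t3* itself was at 202 and 242 CPM with sh2 and at 123 and 146 CPM with sh3, against 401 and 429 CPM. The part of this unequal depletion in the *Aqp9* difference was not tested.

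In *Irf2bp2* KD *Aqp9* was at 154 and 187 CPM against 117 and 122 CPM, with no overlap. It rose by 0.51 ± 0.09 (adjusted p = 0.000305), just past the fold limit, and without Irf2bp2 WT replicate 1 or Irf2bp2 KD-sh1 replicate 2 the log2 FC was 0.475 or 0.366, below it. In *Kdm1a* KD it was at 147 and 169.9 CPM against 114 CPM, differences of 0.38 and 0.60. On MEL induction 102 and 85.3 CPM lay above 49.0 and 76.8 CPM, but the log2 FC of 0.58 ± 0.27 did not pass the test (adjusted p = 0.123). That log2 FC ran from 0.28 to 0.94 with a library left out. The libraries labelled Gfi1b KD, at 74.1 and 71.3 CPM, both lay above 41.0 and 48.6 CPM (log2 FC 0.71 ± 0.22, adjusted p = 0.690).

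*Aqp1*, the red cell water channel, was barely counted in the shRNA libraries, with between 1 and 14 counts in each of 13. In the *Cbfa2t3* table the 4 KD libraries had 5, 9, 14 and 7 counts and the controls 10 and 7, and the log2 FC was 0.10 with an interval from -0.87 to 1.07. MEL cells grown for the induction experiment held more, 1.4 and 2.44 CPM before induction and 4 and 6.57 CPM after it. The counts were 28 and 29 against 58 and 93, without overlap, and the log2 FC of 1.49 ± 0.56 had an adjusted p of 0.0606. That p was 0.0250 without the filter, 0.0292 with at least 10 counts in every library and 0.0165 without MEL induced replicate 1, where the 1 remaining induced library is assumed to vary like the non-induced pair.

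In the *Gfi1b* table the 2 labelled KD libraries differed for *Aqp1* and *Car2* and lay close together for *Aqp9*. The library labelled Gfi1b KD replicate 1 had 72 counts of *Aqp1* where both controls had 0 and the other labelled KD library had 4. It also held 2564 CPM of summed erythroid markers, against 1263 and 1366 CPM in the controls, and 879.7 CPM of summed megakaryocyte markers against 222 to 285 CPM in the controls. The part of these shifts in its *Aqp1* and *Car2* values was not tested. Over the table edgeR called 0 of 11190 genes (0%), with 784 at an unadjusted p under 0.05, and none of the 3 genes tested. DESeq2 called 57 genes and none of the 3. Without the filter 411 genes were called, among them *Aqp1* (adjusted p = 0.00352) and *Slc4a1* (adjusted p = 2.86e-27), each with 0 counts in both controls. Both calls lean on labelled KD replicate 1, with 72 counts of *Aqp1* and 613 of *Slc4a1*. Replicate 2 had 4 and 8, so these calls are given as a description. Without replicate 1, *Aqp9* had a log2 FC of 0.68 (adjusted p = 0.0192) and *Car2* had -0.23 (adjusted p = 0.497). Without replicate 2, *Aqp9* had 0.72 (adjusted p = 0.00387) and *Car2* 0.94 (adjusted p = 4.49e-07). Each of these fits has 1 labelled KD library, which is assumed to vary like the controls. For labelled Gfi1b KD minus *Cbfa2t3* KD effects, the joint edgeR fit called none of the 5 genes tested and 0.690% of all genes. For *Irf2bp2* KD minus labelled Gfi1b KD effects it called none of the 5 and 0.842% of all genes. DESeq2 called 1 of the 5 for each difference.

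**Figure D4:**
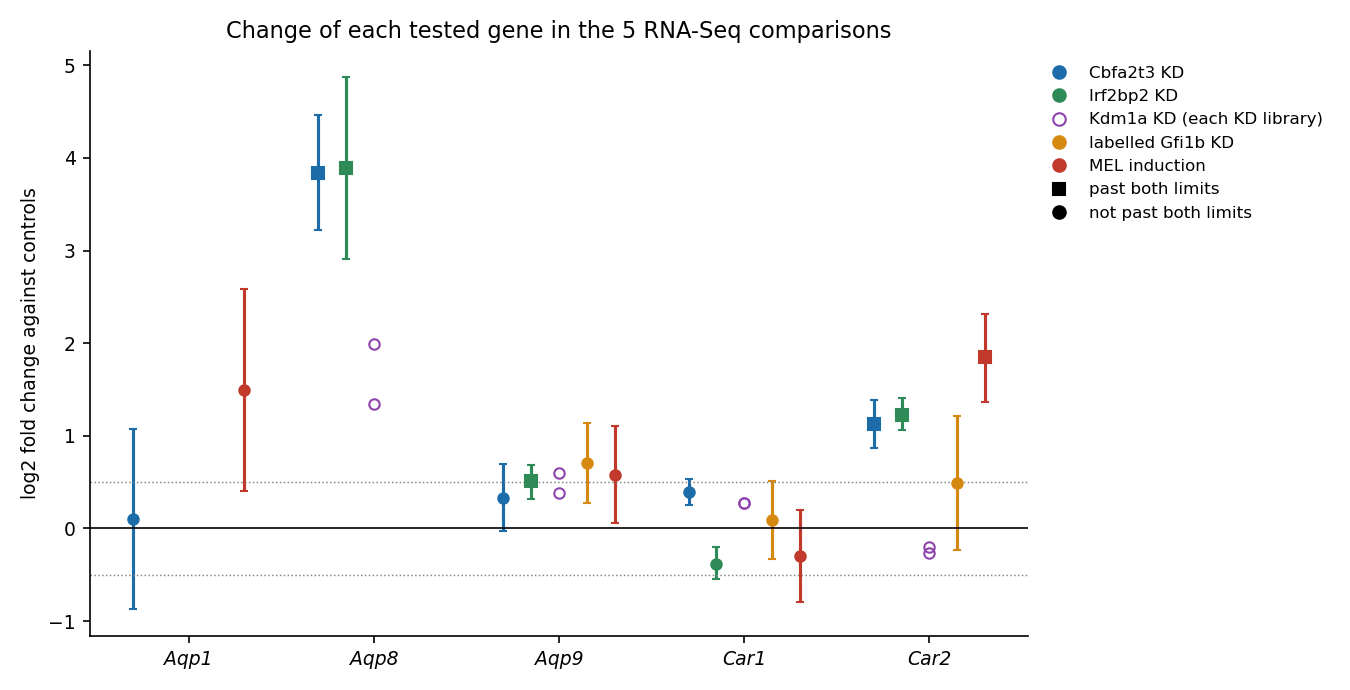
Log2 FC of each tested gene against its controls in the 5 comparisons, with 95% intervals from the edgeR fit, squares where both the adjusted p and the fold limit (dotted lines at 0.5 and -0.5) were passed, and open circles for the single KD libraries of the untested *Kdm1a* comparison. *Aqp8* stands near 4 in *Cbfa2t3* and *Irf2bp2* KD, *Car2* is past the limits in both and on MEL induction, and *Car1* lies on opposite sides of 0 in *Cbfa2t3* and *Irf2bp2* KD.

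Other genes of the same families and of ion and gas transport were read from lists. Of 8 other aquaporins, *Aqp11*, an intracellular member, was the only one tested in the 4 replicated tables, and it was called only between the hairpins (0.72 higher with sh3, adjusted p = 0.0136). In *Kdm1a* KD, *Mip*, a lens aquaporin, was also kept, only through the control library, and both KD libraries lay below it (-0.81 and -0.63).

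Of 17 other carbonic anhydrases, 11 were tested in *Cbfa2t3* KD and only the mitochondrial *Car5b* was called, higher by 0.75 ± 0.16 (adjusted p = 0.0167), against 5.74% of all genes. In *Irf2bp2* KD 4 of 11 fell and 1 rose, with a list median of -0.51 against -0.01 for all genes tested, of which 22.5% were called (1243 higher and 1535 lower). The membrane-bound *Car12* fell by 2.33 (adjusted p = 5.43e-06) and *Car9* by 0.93 (adjusted p = 0.00378), while *Car15* rose by 1.46 (adjusted p = 0.00859). *Car7* and *Car8*, with at most 19 counts in any library of the table, also fell. Both passed the filter only through the control libraries, and *Car15* only through the KD libraries, so these calls are given as a description. On MEL induction 3 of 9 fell and 1 rose, with a median of -1.02 against -0.02 and with 27.2% of all genes called. *Car3*, the gene between *Car1* and *Car2*, fell by 2.54 (adjusted p = 0.0156), from 57 and 50 counts to 12 and 5. *Car12* fell by 3.11 (adjusted p = 0.00315), *Car8*, whose product lacks enzyme activity, by 3.12 (adjusted p = 0.00383), and *Car14* rose by 3.17 (adjusted p = 0.00535). *Car8* went from 144 and 38 counts to 9 and 8, and *Car14* from 6 and 8 to 44 and 76. *Car3*, *Car8* and *Car12* passed the filter only through the non-induced libraries and *Car14* only through the induced ones, so the count of 4 and the median are a description and support no direction for the list. In *Kdm1a* KD 5 of 11 were higher by at least 0.5 in both KD libraries (*Car5a*, *Car5b*, *Car7*, *Car11* and *Car14*) and none was lower by as much in both, with a median of 0.37 against 0.00, and 22.9% of all genes passed the limit in both libraries (1655 higher and 1238 lower). *Car5a* and *Car7* were kept only through the KD libraries. In the *Gfi1b* table none of 7 was called.

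Of 14 bicarbonate, proton, gas and urea carriers, 9 were tested in *Cbfa2t3* KD. *Slc4a1*, band 3, rose by 3.93 ± 0.53 (adjusted p = 0.00231) and the Rh antigen gene *Rhd* by 0.54 ± 0.09 (adjusted p = 0.00543), with a list median of 0.34 against 0.00 for all genes, of which 5.74% were called. Between the hairpins, where 3.71% of all genes were called, *Slc4a1* was higher with sh3 by 1.38 (adjusted p = 1.14e-05) and *Slc14a1* by 0.63 (adjusted p = 0.000112), while *Slc4a11* was lower (log2 FC -0.76, adjusted p = 0.0168). In *Irf2bp2* KD 5 of 9 rose and 2 fell, with a median of 0.63 against -0.01 and 22.5% of all genes called. *Slc4a1* rose by 5.13 (adjusted p = 1.24e-12), from 141 and 214 counts to 4917 and 7224. *Rhd* rose by 1.82 (adjusted p = 7.62e-10), the ammonia channel *Rhag* by 0.71 (adjusted p = 1.54e-05) and the urea transporter *Slc14a1* by 0.63 (adjusted p = 1.38e-05), while *Slc4a8* and *Slc4a11* fell. *Slc4a1*, *Rhd*, *Rhag* and *Slc14a1* rose on MEL induction too, among 5 of 9, and *Slc4a11* fell by 1.93 (adjusted p = 0.0240), with a median of 1.29 against -0.02 and 27.2% of all genes called. There *Slc4a1* went from 15 and 3 counts to 745 and 1625. It passed the filter only through the induced libraries, so its place in the 5 of 9 is given as a description. In *Kdm1a* KD the red cell carriers were lower: the log2 differences of its KD libraries were -3.01 and -2.79 for *Slc4a1*, -2.06 and -1.88 for *Rhag* and -1.75 and -1.77 for *Rhd*. There, 4 of 9 carriers were lower by at least 0.5 in both libraries and 2 higher, with a median of -0.51 against 0.00, where 22.9% of all genes passed the limit. None of 8 was called in the *Gfi1b* table, where *Slc4a1* was not tested and had 613 counts in the library labelled KD replicate 1, 8 in replicate 2 and 0 in both controls.

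The genes most like each carbonic anhydrase or aquaporin were sought among 11053 genes kept in all 5 tables, by Pearson's r of the log2 CPM difference from the controls of the same table over the 21 libraries. These points share their controls within a table, so r is a description. For *Car2* they were *Tmem14c* (0.970), *Vangl1* (0.961) and *Fam117a* (0.961). For *Aqp9* they were *Sh3tc2* (0.843), *Mbd2* (0.841) and *Atpif1* (0.838), and for *Car1* they were *Mrps10* (0.889), *Ntpcr* (0.885) and *Pawr* (0.862). Among themselves, *Aqp9* and *Car2* gave 0.48, *Aqp9* and *Car1* 0.01, and *Car1* and *Car2* -0.27.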

How the data were processed

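The 27 samples of the series comprise 21 RNA-Seq libraries, in 5 tables, and 6 ChIP or IgG libraries. Per the labels and methods, the authors mapped RNA-Seq reads with TopHat2 and ChIP reads with Bowtie to mm9 and counted reads per RefSeq gene. They deposited raw counts and RPKM per library, beside their own DESeq2 fold changes and p-values, which were not used. Their binding sites carry a deposited fold ratio of ChIP over IgG and an adjusted p-value. The series holds 1 IRF2BP2 ChIP library, and the ETO2 sites come, by the methods, from a public data set whose reads were not used here. Another 4 columns of the list, of read numbers not tied to 1 library, were not used. Whether counting used strand is not given in the sources used here.

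Raw counts were tested with edgeR 4.0.16 in R 4.3.3 (TMM, filterByExpr, glmQLFit and glmQLFTest), adjusted by Benjamini-Hochberg over all genes of a comparison, each table fitted alone. Differences between KD effects came from joint fits of the counts of both tables. *Kdm1a* KD, with 1 control, was described without a test. Intervals are 1.96 SE, or exact Clopper-Pearson for counts, which cover counting error only. Genes named are the 6 members, any gene of 3 lists called in a comparison, the 3 genes most like each member, the targeted genes and markers. Some genes of the lists are not reported here. Members and lists were chosen with earlier results of these data known. Python 3.11.15 and pandas 2.3.3 were used to read sites, motifs and positions from the mm9 genome and GENCODE annotation. The tests were tried on simulated data. Alternatives were DESeq2 1.42.0, its size factors, other filters, the replicate block, single hairpins, leaving out each library, and nearer or stronger sites.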

Additional observations from a re-analysis of the deposited data

Results flagged for a closer look

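*Aqp9* was 0.60 log2 units higher with hairpin sh3 than with sh2 of *Cbfa2t3* (edgeR's quasi-likelihood test, adjusted p = 0.000147), and both sh3 libraries exceeded both sh2 libraries. The *Irf2bp2* and *Cbfa2t3* KD effects on *Car1* differed by -0.77 in the joint fit (adjusted p = 0.000604). *Car1* was also below both controls in both *Irf2bp2* KD libraries (log2 FC -0.38) and above the control in both *Kdm1a* KD libraries, a difference that was not tested. *Car2* was below its control in both *Kdm1a* KD libraries (mean difference -0.24) and above all controls in *Cbfa2t3* KD, *Irf2bp2* KD and MEL induction, and the difference was not tested because *Kdm1a* KD has 1 control. Among the 4 *Cbfa2t3* KD libraries, 1 stood apart for *Aqp3* (gap over range 0.868), with 4 counts where the others had 2. Chance sets about 1 in 20 such groups apart.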

How the results depend on the processing

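Genes called in *Cbfa2t3* KD numbered 720, 1145 with sh3 alone, and 279 to 797 with a library left out, the lowest being 279 without Eto2 WT replicate 1 and 360 without replicate 2. With at least 10 counts in every library 1 of the 6 genes was called there, since *Aqp8* was no longer tested. In *Irf2bp2* KD the calls ranged from 2557 to 3022 without a library and *Aqp9* was 0.4995 with the replicate block, just under the limit. In the *Gfi1b* table the calls were 57 with DESeq2, 411 without the filter and 0 to 3148 (0 to 2 of the 6 genes) without a library, being 396 without labelled KD replicate 1 and 3148 without replicate 2. On MEL induction 2 of the 6 genes were called without the filter, with at least 10 counts or with the replicate block, *Aqp1* being the second, and 1 to 2 without a library; all calls ranged from 1522 to 3369, falling to 1626, 1522 and 1772 without non-induced replicate 1, non-induced replicate 2 and induced replicate 2. For labelled Gfi1b KD minus *Cbfa2t3* KD, DESeq2 called 906 genes and 1 of the 6, and leaving out a library gave 0 to 4030 genes and 0 to 2 of the 6. For *Irf2bp2* KD minus labelled Gfi1b KD these were 1095 and 1, and 0 to 4453 and 0 to 2. In *Kdm1a* KD 1 to 2 of the 6 genes passed 0.5 with 1 KD library left out. Not all of the 6 genes were tested at every setting. Their counts have no share of all genes called beside them, so they show only that calls moved with the setting. The sum of sites near the 6 genes was 18 within 100 kb, 9 within 20 kb and 12 at or above the median fold.

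Signs changed for values not called in the full comparison. *Aqp9* was -0.0014 with sh2 alone. With a library left out, *Aqp1* ran from -0.2062 to 0.4496 in *Cbfa2t3* KD and from -0.202 to 1.0133 between hairpins. In the *Gfi1b* table *Car2* ran from -0.2341 to 0.9445 and *Car1* from -0.1734 to 0.2945. *Aqp8* ran from -0.3373 to 0.6136 for *Irf2bp2* minus *Cbfa2t3*, from -4.769 to 3.5771 for labelled Gfi1b minus *Cbfa2t3*, and from -3.3032 to 4.775 for *Irf2bp2* minus labelled Gfi1b. The causes were not tested. Same-numbered libraries correlated at 0.00 to 0.25, with 2 numbers per group, so the replicate block rests on a shared number only. It changed no other call of the 6 genes. *Aqp3* was too low to test in every table that listed it, *Aqp8* in the *Gfi1b* and MEL induction tables and *Aqp1* in the *Irf2bp2*, *Kdm1a* and *Gfi1b* tables.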
